A study of Drosophila melanogaster with 46 samples.

Results

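Cytoplasmic ribosomal protein genes were taken from the gene table of the *Drosophila* larval central nervous system (CNS) by name: every row whose symbol begins with RpL or RpS, including the stalk genes RpLP0, RpLP1 and RpLP2, plus *sta*, the gene of the small-subunit protein named SA in other animals. Genes of the mitochondrial ribosome were left out. The rule gave 93 genes of 17490 in the table: 48 of the large subunit, 39 of the small subunit, 3 of the stalk and 3 like-named relatives of ribosomal protein genes (RpL24-like, RpLP0-like and RpL7-like). Expression was available for 4 Tet CD libraries and 4 wild-type libraries, each made from total RNA of a pool of brains dissected from larvae of the third instar. Tet CD larvae carry point mutations in the iron-binding motif of TET, an enzyme known for oxidising methylated bases, which remove its catalytic activity while the protein is still made. The study's methods list the Tet CD strain under its GFP-tagged form. Wild-type larvae were w1118. The labels describe the 4 libraries of a genotype as biological replicates. The comparison asks what changes in the CNS when TET lacks its enzymatic activity. It cannot separate that loss from a GFP tag or from the background of the stock, since no tagged wild-type RNA library was among the samples. Values are RPKM, that is read counts divided by exon length and by the size of the library, so levels can be compared between genes of different length. In RNA from whole tissue, a difference in the number of cells of a type and a difference in the RNA per cell cannot be told apart.

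The ribosome reads messenger RNA and joins amino acids into protein. Its large subunit holds the site where peptide bonds form, its small subunit reads the code, and a stalk of acidic proteins on the large subunit calls in the elongation factors. The proteins are needed in equal numbers, apart from the stalk proteins, so their genes are known for being expressed together and strongly, above all in growing and dividing cells such as larval neuroblasts. In flies, loss of 1 copy of many of these genes gives the Minute phenotype of slow growth and thin bristles. Most of them start transcription at a pyrimidine-rich initiator called the TCT motif, which in flies works with the factor TRF2 in place of TBP.

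The start sites of these genes are shown here because they set the members apart in sequence before any expression value is read. The TCT letters were searched as TCTTT or CCTTT, on the sense strand, with the C no more than 10 bases from the RefSeq start that most mRNAs of the gene share. They were present in 58 of 93 ribosomal protein genes (62.4%), against 616 of 13968 protein-coding genes (4.41%) and 3 of 73 genes of the mitochondrial ribosome (4.11%). In the ribosomal protein genes that held the letters, the median position of the C was 4 bases after the annotated start. The C lay within 2 bases of that start in 12 of them and was the start itself in 0. The windows below run from 15 bases before the start and are 30 bases long, on genome release 6 (dm6), with CTTT of the motif in capitals. The genes shown are among those the results turn on, and the pairs RpS5a and RpS5b, and RpS19a and RpS19b, set a widely used copy beside its little-used copy.
RpL14 (chr3L:8600991-8601020, plus strand): ctgtcaaaaaagttCTTTccttctctttct
RpL28 (chr3L:3222944-3222973, minus strand): tgtcgggctgccatatttCTTTccttcttg
RpLP1 (chr2L:419937-419966, plus strand): cacactgcatatcaactgctCTTTccggtt
RpS27A (chr2L:10408337-10408366, plus strand): cacgctgtgtgtgtgttCTTTctttccttt
RpS9 (chr3L:9511517-9511546, minus strand): tcacactaccttcacccctCTTTctttttc
RpS12 (chr3L:13023337-13023366, plus strand): aactcacatctccagcgccatgccgatttt
RpS5a (chrX:17148250-17148279, minus strand): cacactgccgtaacatgttCTTTttcaggc
RpS5b (chr3R:14901549-14901578, minus strand): agctccttttaccgtttCTTTttcatcctc
RpS19a (chrX:16637879-16637908, plus strand): ccaacttcacgcgccttgttCTTTtttccg
RpS19b (chr3R:23933516-23933545, minus strand): acttgccaatcgtccattttgactaaagtc

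RpS5a, RpS5b and RpS19a hold the letters, and no match lies in the windows of RpS19b and RpS12. Such a match describes the letters and is not a measured start or a bound factor. In the 300 bases from 250 before to 50 after the start, the DRE letters TATCGATA, bound by the factor DREF, lay on either strand of 28 of 93 ribosomal protein genes (30.1%), against 9.23% of protein-coding genes. The letters GGTCACAC, which match the core of the element bound by M1BP, were in 14 of the 93 (15.1%), against 7.77%. The TATA letters TATAAA on the sense strand were in 32.3% of the members and 32.1% of protein-coding genes. Tested members with the TCT letters had a median level of 1257 RPKM and a median log2 fold change of 0.12 (56 genes). The 30 tested members without them had 1406 RPKM and 0.10.

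Of the 93 genes, 86 passed the filter on low values, a mean over the 8 libraries of 0.5 RPKM or more, and 7 were under it. The tested members are among the most strongly expressed genes of the larval CNS, with a median mean level of 1300 RPKM, against 16.3 RPKM over all 9357 genes tested. Their levels lie close together: 77 of the 86 had a mean between 500 and 3000 RPKM. A single gene was above that range and 8 were below it. The highest was RpL41, which encodes the shortest ribosomal protein, at 4653 RPKM. It was followed by the stalk gene RpLP2 (2943 RPKM) and the large-subunit genes RpL14 (2594 RPKM), RpL23 (2486 RPKM) and RpL27A (2298 RPKM). The 8 tested members under 500 RPKM were RpS19b, RpS5b, RpLP0-like, RpS15Ab, RpL24-like, RpS9, RpL34a and RpL22. RpS9 and RpL22 aside, these are second copies or relatives of other members.

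Read numbers behind these levels are high. Whole reads could be worked out for 91 of the 93 genes, within 0.01 of a whole number in all 8 libraries. A tested member had a median of 20160 reads in the shallowest library, so counting error is small for most members and largest for RpS19b, with 23 to 61 reads in a library. The 91 genes took 9.31, 11.5, 10.8 and 9.53% of all reads in Tet CD replicates 1 to 4, against 9.46, 9.30, 9.28 and 9.89% in wild-type replicates 1 to 4. The 95% Wilson intervals of these shares reach at most 0.014 percentage points to either side and cover counting error only. Replicates 2 and 3 of Tet CD stood above the other 6 libraries. By summed RPKM, in which long and short genes weigh alike, the 93 genes made up 26.0% ± 1.56 in Tet CD and 24.3% ± 0.53 in wild type (SD, n = 4 each). The difference came with a share of 27.7 and 26.9% in Tet CD replicates 2 and 3, while the 24.5 and 24.7% of replicates 1 and 4 fell inside the wild-type range of 23.7 to 24.9%.

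Libraries of a genotype differed among themselves, and what sets them apart was not tested. Library sizes worked out from the RPKM steps were 17900000 to 19300000 reads in Tet CD and 17500000 to 32600000 in wild type. Short genes were high and long genes low in Tet CD replicates 2 and 3. *Tet*, the targeted gene, still makes RNA in Tet CD and so checks no label. It had 81.0, 28.3, 39.2 and 72.4 RPKM in Tet CD replicates 1 to 4, against 76.4 to 88.8 RPKM in wild type. The tissue was as labelled by its markers: *elav*, a neuronal RNA-binding protein, had 53.4 to 104 RPKM in Tet CD and 111 to 122 RPKM in wild type. The glial factor *repo* had 41.8 to 48.1 RPKM in Tet CD and 46.5 to 49.9 RPKM in wild type, and 5 neuroblast markers summed to 144 to 159 RPKM in Tet CD and 135 to 163 RPKM in wild type.

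**Figure D1:**
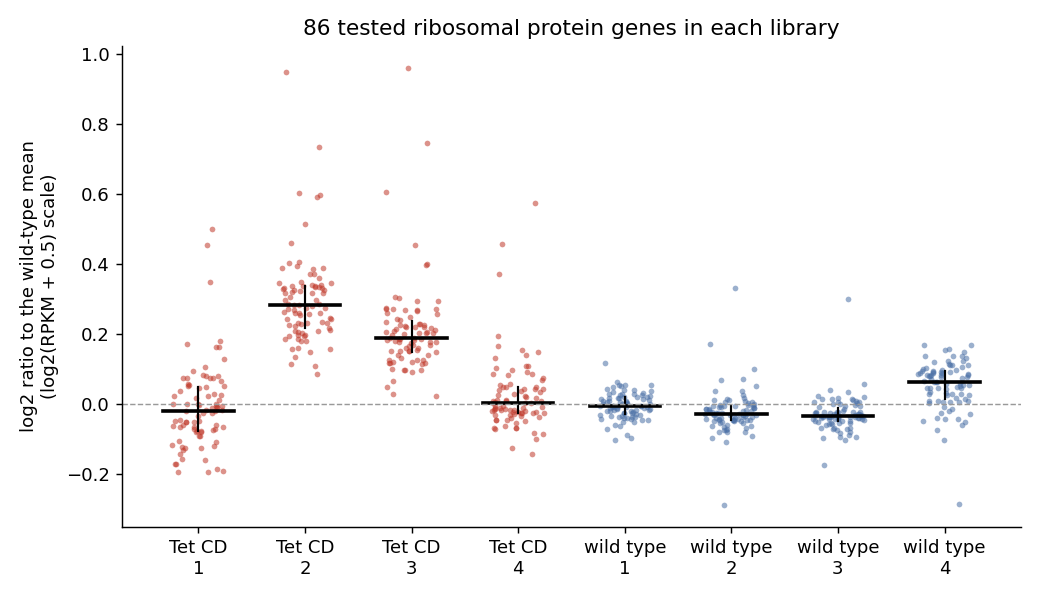
Log2 ratio of each library to the mean of the wild-type libraries, on the log2(RPKM + 0.5) scale, of the 86 tested ribosomal protein genes in each library, with Tet CD in red and wild type in blue. Each point is a gene, the thick bar is the median and the thin line is the interquartile range; the medians of Tet CD replicates 2 and 3 are 0.28 and 0.19, and those of the other 6 libraries lie between -0.03 and 0.06.

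The ribosomal protein genes were high together in 2 of the 4 Tet CD libraries and near the wild-type level in the other 2. The median member had 1243, 1473, 1404 and 1274 RPKM in Tet CD replicates 1 to 4, against 1255, 1233, 1206 and 1308 RPKM in wild-type replicates 1 to 4. As a log2 ratio to the wild-type mean of the same gene, the member median was -0.02, 0.28, 0.19 and 0.00 in Tet CD replicates 1 to 4. In wild-type replicates 1 to 4 it was -0.01, -0.03, -0.03 and 0.06. All 86 tested members were above their wild-type mean in Tet CD replicate 2, and all 86 in replicate 3, but only 34 in replicate 1 and 44 in replicate 4. Replicate 2 was the highest of the 4 Tet CD libraries for 82 members and replicate 3 for the other 4. The mean of the library medians was 0.11 ± 0.15 in Tet CD and -0.00060 ± 0.045 in wild type (SD, n = 4 each), so the difference is smaller than the spread among the Tet CD libraries.

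In the fit, the median log2 fold change of the 86 members was 0.11, against -0.01 for all 9357 genes tested. Higher estimates in Tet CD were obtained for 82 members and lower ones for 4, namely RpS12, RpL41, RpS10b and RpL8, whose log2 fold changes lay between -0.03 and -0.01. None of the 86 was called by limma, where a call needed a fold change over 1.2 and a p under 0.01 after Benjamini-Hochberg adjustment over all genes tested. Among all genes tested 1.16% were called higher and 1.35% lower in Tet CD, and 2.51% in either direction. At an unadjusted limma p below 0.05 there were 13 members, all higher in Tet CD (15.1%), against 14.4% of all genes tested that passed it in that direction. With the adjusted p set at 0.05, 4 members were called higher, against 4.72% of all genes tested. With limma's array weights, which let Tet CD replicate 3 count far more than the other Tet CD libraries, 10 members were, against 8.83%. With Tet CD replicates 2 and 3 left out, the member median was -0.0094, with 38 members higher and 48 lower and none called. Without replicate 2 alone it was 0.058, and without replicate 3 alone 0.086.

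The log2 fold changes of the members lay close together. Their interquartile range ran from 0.08 to 0.15, and 72 of 86 lay within 0.1 of the member median. For the 51 other genes that averaged 500 RPKM or more, it ran from -0.11 to 0.09 around a median of 0.02. In Tet CD replicate 2 the interquartile range of the log2 ratios was 0.12 for the members and 0.24 for those genes. In wild-type replicate 1 it was 0.047 for the members and 0.050 for those genes. These are descriptions across genes, which share libraries and are not replicates.

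**Figure D2:**
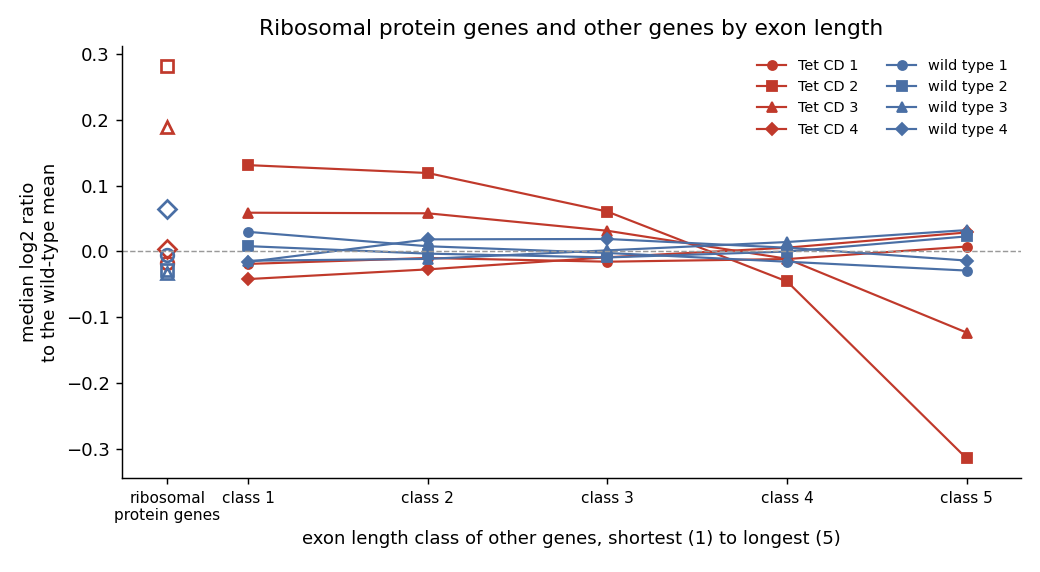
Median, in each library, of the log2 ratio to the mean of the wild-type libraries (Tet CD red, wild type blue, 1 symbol per replicate number) for the ribosomal protein genes (open symbols, left) and for other tested genes in 5 classes of exon length with equal numbers of genes (filled symbols, lines join the classes of 1 library). In Tet CD replicate 2 the other genes run from 0.13 in the shortest class to -0.32 in the longest, and the ribosomal protein genes stand at 0.28.

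Exon length moved with this result. The tested members have a median exon length of 922 bases, against 2086 bases for all genes tested, and 83 of the 86 fall in the 2 shortest of 5 length classes of equal gene number. In Tet CD replicates 2 and 3, the other genes of the shortest class had median log2 ratios of 0.13 and 0.06, and those of the longest class -0.32 and -0.12. The members stood at 0.28 and 0.19 in the same libraries, above the short genes. After a lowess trend over exon length was taken out of every library, the member median was 0.01, 0.14, 0.13 and 0.04 in Tet CD replicates 1 to 4. In wild-type replicates 1 to 4 it was then -0.02, -0.02, -0.02 and 0.06. The member median log2 fold change was 0.08 under that correction, with 77 members higher and 9 lower. What makes short genes high in these libraries was not tested.

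Fat body markers moved with a part of the result as well. The 5 fat body markers (Fbp1, Fbp2 and the storage protein genes Lsp1alpha, Lsp1beta and Lsp2) summed to 1.41, 51.1, 1.94 and 2.16 RPKM in Tet CD replicates 1 to 4. In wild-type replicates 1 to 4 they summed to 0.92, 7.23, 2.67 and 22.5 RPKM. The 2 libraries with the highest sums, Tet CD replicate 2 and wild-type replicate 4, were also those with the highest member median in their own group. Lsp2 was at or near 0 in all 8 libraries. Tet CD replicate 3 had a member median of 0.19 with each of the 5 markers under 1 RPKM. Without both libraries the member median log2 fold change was 0.073, with 79 members higher, 7 lower and none called. The 5 tracheal markers summed to 113 to 193 RPKM in Tet CD and 45.5 to 101 RPKM in wild type, without overlap. The 5 hemocyte markers summed to 20.7 to 32.8 RPKM in Tet CD and 12.9 to 26.6 RPKM in wild type. Much of these sums was Pxn, at 9.32 to 13.8 RPKM in Tet CD and 10.5 to 14.1 RPKM in wild type. The 4 tested hemocyte markers had a median log2 fold change of 1.31, with 3 higher, 1 lower and none called. The 5 neuronal markers summed to 294, 182, 222 and 295 RPKM in Tet CD replicates 1 to 4, against 302 to 346 RPKM in wild type. These sums were thus lowest in the 2 libraries where the members were highest. The neuronal markers are long, with a median exon length of 8994 bases, and long genes were low in those libraries. In Tet CD replicates 2 and 3 their median log2 ratios were -1.20 and -0.78. With the exon length trend removed, these were -0.80 and -0.60. The 5 glial markers had a median log2 ratio of 0.15, 0.22, 0.27 and -0.03 in Tet CD replicates 1 to 4, against -0.06 to 0.06 in wild type, and so were highest in the same 2 libraries as the members. Their median log2 fold change was 0.15, with 3 higher, 2 lower and none called. The part of these cell types in the result was not tested.

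**Figure D3:**
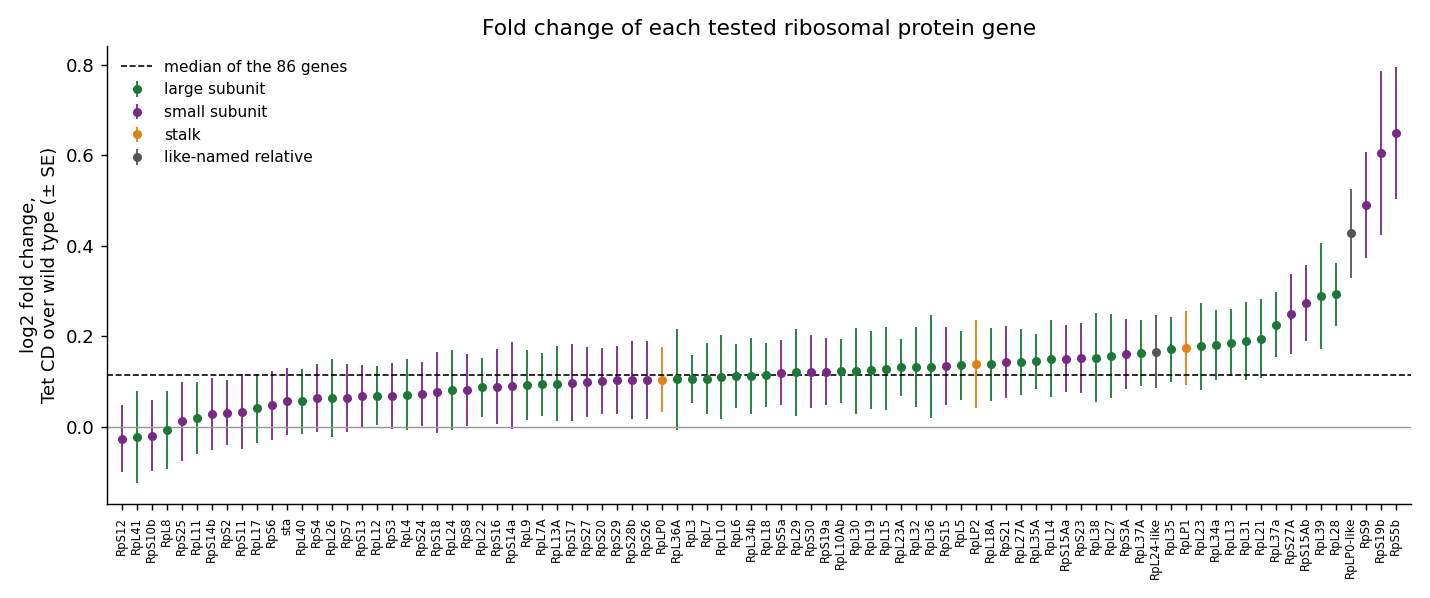
Log2 fold change of Tet CD over wild type (vertical axis, ± SE from limma) for each of the 86 tested ribosomal protein genes, ordered by size and coloured by subunit. The dashed line is the median of the 86 genes, 0.11; RpS5b, RpS19b, RpS9 and RpLP0-like stand above the others, and RpS12, RpL41, RpS10b and RpL8 are the 4 below 0.

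Both subunits showed the same libraries high. The 45 tested large-subunit genes had a median log2 fold change of 0.12, with 43 higher and 2 lower in Tet CD. For the 36 tested small-subunit genes it was 0.10, with 34 higher and 2 lower. Large-subunit genes had medians of -0.02, 0.30, 0.20 and 0.02 in Tet CD replicates 1 to 4, and small-subunit genes -0.05, 0.27, 0.17 and -0.02. Without Tet CD replicates 2 and 3 the medians were 0.0021 for the large and -0.026 for the small subunit. By chromosome the members' medians ran from 0.09 (15 tested genes on the X) to 0.13 (19 tested genes on 2R), apart from the lone member on chromosome 4, at 0.16.

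The stalk genes showed the library pattern in full. RpLP1, which encodes an acidic stalk protein, had 1843, 2272, 2167 and 1848 RPKM in Tet CD replicates 1 to 4, against 1862, 1802, 1754 and 1761 RPKM in wild type. RpLP2, its partner in the stalk dimer, had 2782, 3524, 3374 and 2692 RPKM in Tet CD and 2865, 2813, 2837 and 2655 RPKM in wild type. RpLP0, the protein that anchors the dimers on the large subunit, had 1176, 1399, 1341 and 1166 RPKM in Tet CD and 1158, 1176, 1159 and 1221 RPKM in wild type. In all 3 genes Tet CD replicates 2 and 3 lay above every wild-type library and the groups overlapped. Their log2 fold changes were 0.17 (RpLP1), 0.14 (RpLP2) and 0.10 (RpLP0), with adjusted limma p of 0.198, 0.379 and 0.37.

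RpL41, the highest member, was among the 4 with an estimate below 0. It had 4152, 5356, 4751 and 4231 RPKM in Tet CD, against 4626, 4501, 4354 and 5252 RPKM in wild type. The highest library of each group was Tet CD replicate 2 and wild-type replicate 4, and the groups overlapped, with a log2 fold change of -0.02 (SE 0.10, adjusted p of 0.905). RpL14 had 2452, 3069, 2934 and 2485 RPKM in Tet CD, against 2446, 2422, 2438 and 2504 RPKM in wild type. RpL23 had 2421, 3041, 2854 and 2275 RPKM in Tet CD, against 2417, 2369, 2257 and 2258 RPKM in wild type. RpL27A had 2145, 2563, 2504 and 2447 RPKM in Tet CD, against 2170, 2111, 2131 and 2316 RPKM in wild type. Replicates 2 and 3 of Tet CD were above every wild-type library for these 3 genes, whose log2 fold changes were 0.14 to 0.18 and whose adjusted p were 0.231 to 0.278.

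RpL28 was the large-subunit gene with the largest estimate, and it was chosen for description after its values were seen. It lies at 3220911 to 3222960 on chromosome 3L and hosts 5 snoRNA genes. It had 1067, 1254, 1248 and 1084 RPKM in Tet CD replicates 1 to 4, against 914, 940, 986 and 950 RPKM in wild type. Every Tet CD library was above every wild-type library, replicates 1 and 4 included. The log2 fold change was 0.29 (SE 0.07), and the adjusted limma p of 0.0338 missed the threshold of 0.01. It was 0.27 with an adjusted p of 0.00784 once the trend over exon length was removed, where RpL28 was the 1 member called, against 1.83% of all genes called higher in that fit. RpL39, a large-subunit gene with the shortest exon length of the tested members (288 bases), had 1260, 1871, 1636 and 1366 RPKM in Tet CD. In wild type it had 1297, 1286, 1184 and 1199 RPKM. Its groups overlapped, and its log2 fold change was 0.29 (SE 0.12, adjusted p = 0.142).

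Of the 86 members, 8 had all Tet CD libraries above all wild-type libraries (9.30%), against 9.35% of all genes tested. None had all Tet CD libraries below, against 9.42%. The 8 were RpL28, RpL21, RpL37a, RpS3A, RpS5b, RpS9, RpS15Ab and RpS19b, a share near the background. RpL21 had 2089 to 2696 RPKM in Tet CD and 2025 to 2044 RPKM in wild type. RpS3A had 1367 to 1697 RPKM in Tet CD and 1312 to 1360 RPKM in wild type. In both the lowest Tet CD library lay just above the highest wild-type library, and their log2 fold changes were 0.19 and 0.16. RpL37a had 887 to 1067 RPKM in Tet CD and 800 to 873 RPKM in wild type, with a log2 fold change of 0.23 (adjusted p = 0.0786).

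In the small subunit, RpS9, whose protein binds near the messenger RNA entry channel, combined a low level with one of the larger differences. The gene lies at 9509793 to 9511531 on chromosome 3L. It had 174, 259, 236 and 213 RPKM in Tet CD replicates 1 to 4, against 155, 159, 137 and 171 RPKM in wild type. All Tet CD libraries were above all wild-type libraries, and the log2 fold change was 0.49 (SE 0.12, adjusted p of 0.034), short of the threshold. It was called without Tet CD replicate 1, its lowest Tet CD library (log2 fold change 0.60, adjusted p = 0.007). In that fit 81 of all genes tested were called higher. RpS9 was called in no other fit with 1 library left out. Its level of 188 RPKM was far under the member median of 1300 RPKM. Of its 1018 exon bases in the annotation used here, 512 are shared with the antisense RNA CR45874, itself listed at no more than 0.33 RPKM. Whether the reads were counted by strand is not given in the sources used here, so reads of the 2 genes may not be told apart. The listed level of RpS9 may therefore not be its full level, and the part of the overlap in it was not tested.

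RpS27A, which encodes ubiquitin fused to a small-subunit protein, was also described after its values were seen. It had 2342, 2847, 2553 and 2141 RPKM in Tet CD, against 2150, 2084, 2029 and 2012 RPKM in wild type. Tet CD replicate 4 lay inside the wild-type range, and the log2 fold change was 0.25 (SE 0.09, adjusted p = 0.106). At the other end, RpS12, a small-subunit protein known in flies for its part in cell competition between Minute and normal cells, had 1663, 1953, 1848 and 1661 RPKM in Tet CD. In wild type it had 1842, 1713, 1762 and 1931 RPKM. The groups overlapped, with a log2 fold change of -0.03 (SE 0.07, adjusted p = 0.846). RpS10b had 647, 822, 776 and 692 RPKM in Tet CD, against 745, 723, 713 and 784 RPKM in wild type (log2 fold change -0.02). *sta* had 1339, 1595, 1510 and 1326 RPKM in Tet CD, against 1390, 1340, 1342 and 1464 RPKM in wild type (log2 fold change 0.06, adjusted p = 0.658).

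To compare members among themselves, each library was scaled to the median of the ribosomal protein genes, a choice made after seeing the data that shifts the median of all genes to -0.12. Relative to the other members, RpS9 then had a log2 fold change of 0.38 (adjusted p = 0.0214), RpS12 -0.14 (0.0237), RpS10b -0.13 (0.0291) and RpL28 0.18 (0.0327). None of the 86 was called under that scaling either. The 4 adjusted p are from limma over all genes, and each misses 0.01. These 4 genes are the members with the smallest p in that fit. A count of calls over all genes is not given for it, so how unusual such values are cannot be judged.

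The largest log2 fold changes within the set were those of RpS5b and RpS19b, lower copies of duplicated genes. These were also the tested members with the lowest levels. Other tested members with a duplicate ranged from -0.02 for RpS10b to 0.27 for RpS15Ab. In flies many ribosomal proteins are encoded by a pair of genes, of which one copy is used widely and the other in a few tissues, often the germ line. RpS5b, the copy of RpS5a known for its use in the ovary, lies at 14900432 to 14901563 on chromosome 3R. It had 9.63, 10.7, 13.9 and 10.5 RPKM in Tet CD replicates 1 to 4, against 6.38, 5.55, 8.59 and 7.36 RPKM in wild type. RpS5a, the widely used copy, had 1142 to 1357 RPKM in Tet CD and 1090 to 1204 RPKM in wild type. All Tet CD libraries were above all wild-type libraries for RpS5b, while the groups overlapped for RpS5a. The log2 fold change of RpS5b was 0.65 (SE 0.15), the largest of the tested members, and its adjusted limma p was 0.0276. RpS5b held 106 to 243 reads in a library.

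RpS19b, known as the germ-line copy of RpS19a, had 2.85, 4.59, 3.91 and 2.91 RPKM in Tet CD, against 1.98, 2.81, 2.21 and 1.66 RPKM in wild type. The gap between the groups was 2.85 against 2.81 RPKM at its narrowest, and the log2 fold change was 0.60 (SE 0.18, adjusted p = 0.0667). Beside these germ-line copies, the 4 gonad markers found in the table summed to 1.32 to 2.14 RPKM in Tet CD, against 0.86 to 1.45 RPKM in wild type. Most of it was *bam*, a germ-line differentiation factor, with overlapping groups and a log2 fold change of 0.46 at an unadjusted limma p below 0.05, not called, while *nos*, *aly* and *zpg* reached at most 0.287 RPKM. The part of germ-line cells in the values of RpS5b and RpS19b was not tested.

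RpS15Ab, the lower copy of RpS15Aa, had 102, 130, 112 and 97.8 RPKM in Tet CD, against 89.1, 94.9, 88.5 and 89.7 RPKM in wild type. Its log2 fold change was 0.27 (adjusted p = 0.0711), beside 0.15 for RpS15Aa. RpL34a had 361 to 449 RPKM in Tet CD and 333 to 375 RPKM in wild type, and RpL34b 973 to 1233 RPKM in Tet CD and 978 to 1028 RPKM in wild type.

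**Figure D4:**
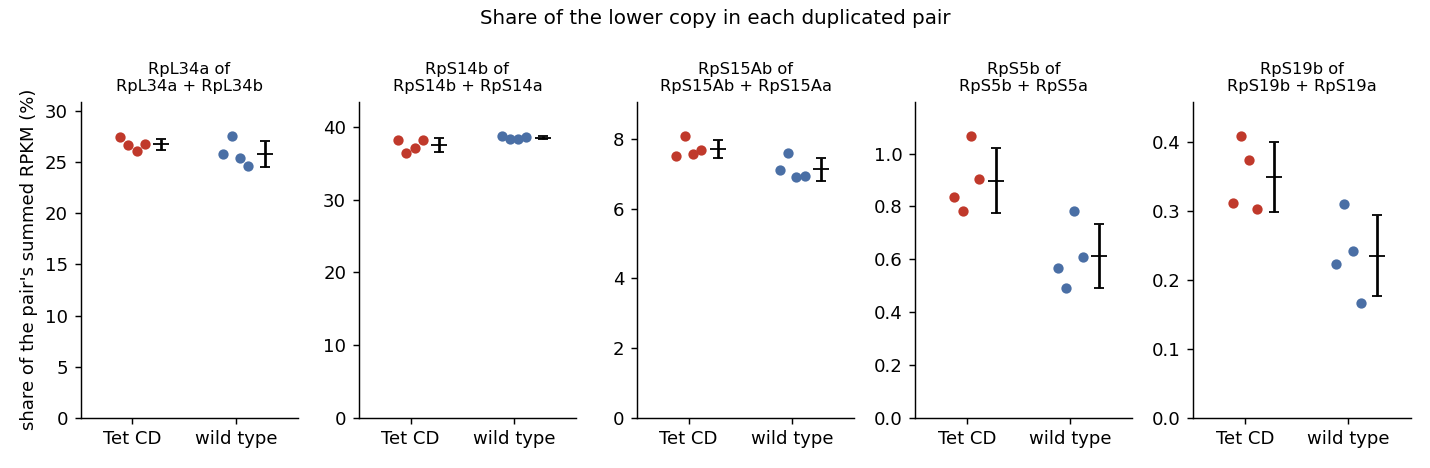
Share of the lower copy in the summed RPKM of each duplicated pair (vertical axes, percent, each starting at 0), with Tet CD libraries in red on the left and wild-type libraries in blue on the right. Bars give the mean and SD of 4 libraries; RpS5b makes up 0.90% in Tet CD and 0.61% in wild type, and RpS14b 37.6% in Tet CD and 38.6% in wild type.

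The share of the lower copy within a pair is free of any scaling that both copies have in common. The share of RpS5b was 0.836, 0.784, 1.07 and 0.903% in Tet CD, against 0.566, 0.493, 0.782 and 0.607% in wild type. Its mean was 0.90% ± 0.12 in Tet CD and 0.61% ± 0.12 in wild type (SD, n = 4 each). By exact permutation of the libraries (70 arrangements, two-sided) it reached p = 0.0286, the smallest p that 4 against 4 can give, and 0.0715 after Benjamini-Hochberg adjustment over the 5 pairs compared. RpS14b took 37.6% ± 0.91 of the RpS14 pair in Tet CD and 38.6% ± 0.23 in wild type (exact permutation p = 0.0286, adjusted 0.0715). The RpS14 genes are neighbours on the X with near-identical coding sequence, so that reads may be split between them. The share was 0.35% ± 0.051 in Tet CD and 0.24% ± 0.059 in wild type for RpS19b, 7.73% ± 0.26 and 7.14% ± 0.32 for RpS15Ab, and 26.8% ± 0.54 and 25.9% ± 1.27 for RpL34a (adjusted exact p of 0.0952, 0.107 and 0.257). None of the 5 passed 0.05 after adjustment.

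The like-named relatives differ in role from the ribosomal proteins. RpLP0-like is the fly counterpart of yeast Mrt4, which holds the place of RpLP0 in the forming large subunit. It had 69.6, 74.6, 67.4 and 54.7 RPKM in Tet CD replicates 1 to 4, against 48.2, 55.4, 45.9 and 47.4 RPKM in wild type. Tet CD replicate 4 lay inside the wild-type range, and the log2 fold change was 0.43 (SE 0.10, adjusted p = 0.0298). Without Tet CD replicate 4, its lowest Tet CD library, it was called (0.52, adjusted p = 0.0044). In that fit 205 of all genes tested were called higher, against 109 in the reported fit. RpLP0-like was called in no other fit with 1 library left out. RpL24-like, the counterpart of the yeast assembly factor Rlp24, had 169, 200, 190 and 153 RPKM in Tet CD, against 159, 157, 152 and 163 RPKM in wild type (log2 fold change 0.17, adjusted p = 0.212).

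Members under the filter had few or no reads in this tissue. RpL7-like was listed at 0 in all 8 libraries, but it shares 1771 of its 1793 exon bases with CG34164 on the same strand, also listed at 0, so its level cannot be read from these values. RpL10Aa had 1 read in 1 wild-type library, while its copy RpL10Ab had 1295 to 1584 RPKM. RpS28a had 0 reads in Tet CD and 4 in wild type, RpS28-like 0 and 3, RpS10a 3 and 9, and RpL37b 2 and 10, over the 4 libraries of each genotype. The used copy RpS28b had 1007 to 1313 RPKM in Tet CD and 1011 to 1074 RPKM in wild type. RpL22-like, a copy of RpL22 known for its use in the germ line and the eye, had 19, 4, 5 and 10 reads in Tet CD replicates 1 to 4, against 0, 1, 1 and 4 reads in wild-type replicates 1 to 4. Of the 38 Tet CD reads, 19 came from replicate 1, and the gene reached at most 0.861 RPKM. RpL22 itself had 439, 456, 471 and 460 RPKM in Tet CD, against 402, 402, 441 and 479 RPKM in wild type, and shares 377 of its 1100 exon bases with the noncoding RNA CR42491 on the same strand.

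Of the 93 genes, 29 hold at least 1 snoRNA gene, the guide RNAs of ribosomal RNA modification, and together they hold 76 of the 269 annotated snoRNA genes (28.3%). RpS5a alone holds 14. The tested members with a snoRNA gene had a median log2 fold change of 0.10 and those without 0.12.

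**Figure D5:**
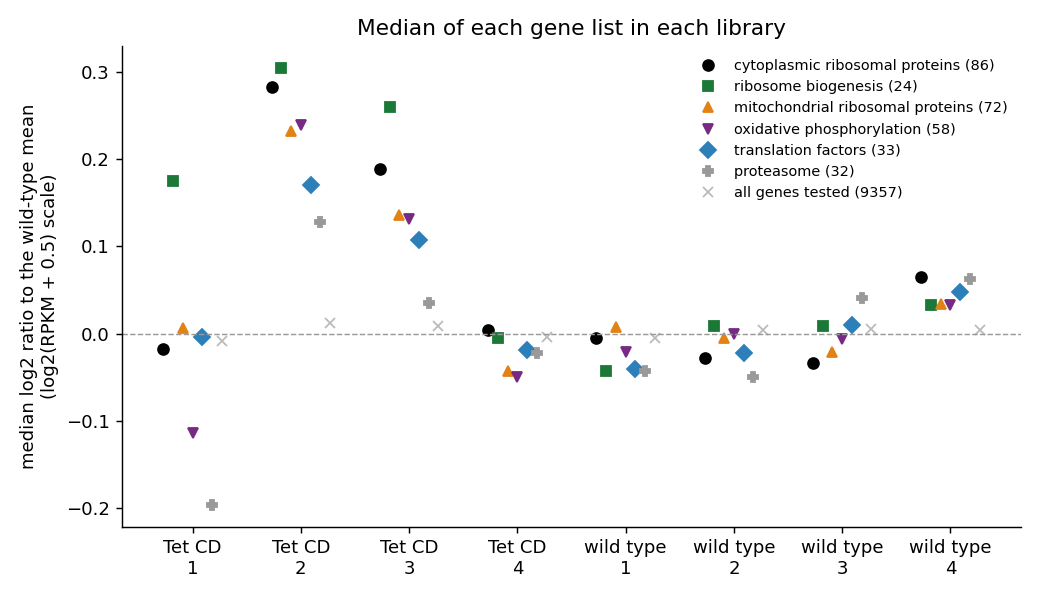
Median, in each library, of the log2 ratio to the mean of the wild-type libraries for the ribosomal protein genes and 5 related gene lists, and for all genes tested, with the number of tested genes in brackets (Tet CD libraries left, wild-type libraries right). Tet CD replicate 2 is the highest library for all 6 lists, at 0.28 for the ribosomal protein genes and 0.31 for ribosome biogenesis genes, while all genes tested stay between -0.01 and 0.01. The exon length trend was not removed from these values.

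Other genes of the protein synthesis machinery were set beside the members. The 24 ribosome biogenesis genes, which make and assemble ribosomal RNA, had medians of 0.17, 0.31, 0.26 and -0.01 in Tet CD replicates 1 to 4, against -0.04 to 0.03 in wild type. Their median log2 fold change was 0.20 (from -0.04 to 0.37), with 22 higher, 2 lower and none called, and it was 0.10 without Tet CD replicates 2 and 3. Unlike the ribosomal protein genes, they were thus above the wild-type libraries in Tet CD replicate 1 as well, a difference between lists that was not tested. The 72 tested genes of the mitochondrial ribosome had a median of 0.09 (-0.38 to 0.53), with 1 called higher and 1 lower. The 33 translation factors had 0.07 (-0.49 to 0.31), with none called. The 58 nuclear genes of oxidative phosphorylation had 0.05 and the 32 proteasome genes -0.02, with none called in either. In Tet CD replicate 2 the medians of these 4 lists were 0.23, 0.17, 0.24 and 0.13. That library was thus high for each of them. Their median exon lengths were 783, 1777, 843 and 1304 bases, and short genes were high in that library. With the exon length trend removed, their medians there were 0.09, 0.09, 0.09 and 0.02. Under the same correction the ribosome biogenesis genes (median exon length 1784 bases) had 0.25 and the members 0.14.

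Of 18 genes known to act on ribosomal protein genes or on the response to their loss, 8 had higher and 10 had lower estimates in Tet CD. At an unadjusted limma p below 0.05 there were 1 higher and 3 lower. Of the 18, 1 was called. This was *crc*, the fly ATF4, a factor of the integrated stress response, which had 282, 298, 268 and 229 RPKM in Tet CD replicates 1 to 4, against 159, 157, 150 and 154 RPKM in wild type. All Tet CD libraries were far above all wild-type libraries, and the log2 fold change was 0.79 (SE 0.08, limma's adjusted p of 0.000378). *Xrp1*, the factor that acts in Minute cells, had 65.7, 54.1, 59.7 and 54.6 RPKM in Tet CD, against 52.9, 52.0, 49.7 and 56.4 RPKM in wild type (log2 fold change 0.15, adjusted p = 0.217). *Thor*, the fly 4E-BP, which restrains translation, had 103, 90.7, 75.2 and 61.3 RPKM in Tet CD, against 80.1, 57.0, 32.8 and 83.8 RPKM in wild type (0.44, adjusted p = 0.335). CG6272 went the other way, at 13.73 to 15.43 RPKM in Tet CD and 15.65 to 19.29 RPKM in wild type, without overlap (-0.19, adjusted p = 0.158). The log2 fold changes of *larp* and *REPTOR* were -0.21 and -0.18. Those of *Max*, *REPTOR-BP* and *foxo* were 0.08, 0.04 and 0.01, and none of these genes was called.

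Factors that act at the start sites were read next. *Trf2*, whose product works at TCT promoters, had 16.8, 5.89, 5.85 and 12.3 RPKM in Tet CD, against 21.1, 21.2, 21.2 and 18.4 RPKM in wild type. *Mnt*, the antagonist of *Myc*, had 16.0, 5.84, 5.98 and 13.5 RPKM in Tet CD, against 21.6 RPKM or more in each wild-type library. For both genes all Tet CD libraries were below all wild-type libraries, and the lowest were replicates 2 and 3, where long genes were low. Their log2 fold changes were -1.11 and -1.26, with adjusted p of 0.0493 and 0.0323, which miss the threshold, and they were -0.91 and -1.20 once the exon length trend was taken out. *Myc*, the gene of a growth-promoting transcription factor, was likewise lowest in Tet CD replicates 2 and 3, at 2.39 and 2.68 RPKM. Wild-type libraries had 6.43 to 7.74 RPKM, and Tet CD replicate 1 was above that range. The log2 fold change of *Myc* was -0.61, with limma's adjusted p of 0.327. *Tbp*, *Dref* and *M1BP* had log2 fold changes of -0.01, 0.02 and -0.10, and *Tor* and *raptor* of the TOR complex -0.02 and -0.11, none of them called. *Rack1*, a partner of the small subunit that the naming rule leaves out, had 842, 979, 950 and 875 RPKM in Tet CD and 874, 863, 867 and 957 RPKM in wild type. It thus followed the same libraries as the members, Tet CD replicates 2 and 3 and wild-type replicate 4.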

How the data were processed

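Total RNA was isolated by the authors from pooled larval brains, and libraries were made with the Illumina TruSeq RNA kit. The authors trimmed reads with Cutadapt, aligned them to dm6 with Hisat2 and used HTSeq-Count for read counts. The deposited values are RPKM, for which the authors name Cufflinks. Of the table, 4 Tet CD and 4 wild-type columns matched sample labels by name. Another 4 columns of per-sample values matched no label and were not used. Tet null and the ChIP-seq and CUT&RUN samples were not analysed here.

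Values were compared as log2(RPKM + 0.5) with limma 3.58.1 in R 4.3.3 (eBayes with a trend) over the 9357 genes whose mean reached 0.5 RPKM, 86 members among them. This takes the place of the authors' count test, since the values are RPKM. Fold changes on this scale understate low genes. A call needed a fold change over 1.2 and a Benjamini-Hochberg adjusted p under 0.01. The fit was tested on simulated data. The other steps used matplotlib 3.10.9, statsmodels 0.14.6, scipy 1.17.1, pandas 2.3.3 and numpy 2.4.6 in Python 3.11.15. Whole reads were recovered from RPKM, library size and Ensembl exon length, and positions and sequences came from Ensembl and RefSeq on release 6, which match dm6. Of the 93 symbols all matched.

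Members named are the 3 largest differences each way, the 5 highest levels, the stalk genes, *sta*, RpL41, every member with a duplicate or like-named relative and members under 1 RPKM. RpL28, RpL39, RpS27A, RpL21, RpS3A and RpL8 were named after their values were seen. The members and all gene lists were chosen with earlier results of these data known. Alternatives were other pseudocounts, filters, scalings, thresholds and weights, the replicate block, removal of a trend over exon length (lowess, span 0.3), and leaving out libraries. Those chosen after seeing the data were removing a trend over GC content, scaling to the members, and leaving out the libraries with high fat body markers.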

Additional observations from a re-analysis of the deposited data

Results flagged for a closer look

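In 98 groups of 4 libraries (values of named members, list medians and pair shares), the gap of the highest or lowest library to the next was set against the range of the group, and 1 group passed Dixon's 95% limit, which chance passes in about 1 of 20. In Tet CD replicate 2 the fat body markers had a median log2 ratio of 2.73, and the other 3 Tet CD libraries had -0.61 to -0.28. None of the ribosomal protein genes looked at passed the limit. The rule looks for a single library apart from the next, so it cannot decide on genes that are high in both Tet CD replicates 2 and 3.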

How the results depend on the processing

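No ribosomal protein gene was called lower under any alternative run. Members called higher numbered 0 in most alternatives, 10 with limma's array weights (weight 6.32 for Tet CD replicate 3, 0.32 to 0.40 for the other Tet CD libraries), 4 at an adjusted p below 0.05 (RpS5b, RpLP0-like, RpS9 and RpL28), 1 with the exon length trend removed, and 0 to 1 with single libraries left out. All genes tested had 826 calls higher and 1024 lower with array weights, 171 and 191 with the length trend removed, 442 and 350 at an adjusted p below 0.05, and 52 to 205 and 71 to 203 with 1 library left out, against 109 and 126 in the reported fit. Calls higher were fewest, 52, without Tet CD replicate 3 or without wild-type replicate 1, and most, 205, without Tet CD replicate 4, and calls lower were fewest, 71, without wild-type replicate 1, and most, 203, without Tet CD replicate 4. Calls higher were 44 without Tet CD replicates 2 and 3, and 60 without Tet CD replicate 2 and wild-type replicate 4.

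With the replicate number as a block, 51 genes were called higher and 60 lower, and 0 members. Same-numbered libraries did not pair: the correlations of their deviations were 0.24, -0.19, 0.04 and -0.10. The member median was -0.0094 without Tet CD replicates 2 and 3 and 0.058 to 0.165 with 1 library left out. It stayed above 0 under the other alternatives for which it was computed. Scaling to the members sets their median near 0 by construction, with 42 members higher and 44 lower. Beside the pairs, the lowest p that 4 against 4 libraries can give is 0.0286. The cause of these changes was not tested.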
